A study of Mus musculus with 6 samples.

Results

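The genes described here are 10 hepatocyte genes of the urea cycle and of ammonia release, namely *Cps1*, *Otc*, *Ass1*, *Asl*, *Arg1*, *Nags*, *Slc25a15*, *Slc25a13*, *Gls2* and *Hal*. They were chosen by name, and each matched 1 of the 49671 genes in the count table by its Ensembl identifier. Liver RNA was sequenced in 6 samples from male mice on the C57BL/6J background, 3 SHMT2 fl/fl and 3 SHMT2 HKO. Each sample is called a mouse below by its number, although the labels do not state that each came from its own animal. SHMT2 fl/fl mice carry *Shmt2* flanked by loxP sites and no Cre, and the deposited labels call them WT. SHMT2 HKO mice, labelled KO, carry the same floxed alleles and Albumin-Cre, which the paper used to target the gene in hepatocytes. From its protein blots the paper proposes that SHMT2 in non-parenchymal cells was unaffected. Which liver cells kept the gene was not tested here. Every mouse was weaned at 3 weeks, ate the AMLN diet, a high-fat feed with added fructose and cholesterol, starting at 4 weeks, and was killed after 18 weeks on it, at 22 weeks of age. The mice were fasted before the liver was taken. No chow-fed liver was analysed here, so the values compare genotypes on the AMLN diet.

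The urea cycle turns ammonia into urea, which the kidney excretes. It starts in hepatocyte mitochondria, where carbamoyl phosphate is made from ammonia and joined to ornithine to give citrulline, and it is completed in the cytosol, where aspartate brings the second nitrogen and arginine is split into urea and ornithine. These enzymes are most abundant in periportal hepatocytes, around the incoming portal blood, while glutamine synthetase (*Glul*) in the last pericentral hepatocytes binds the ammonia that escaped.

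Counts on genes ranged from 23090837 to 34089722 per mouse. CPM below is the count per 1000000 of the library size after edgeR's TMM scaling, whose factors were 1.13 to 1.21 in SHMT2 fl/fl and 0.802 to 0.984 in SHMT2 HKO livers. *Shmt2*, the targeted gene, had 94.6, 109 and 93.95 CPM in SHMT2 fl/fl mice 1 to 3 and 24.9, 28.3 and 19.3 CPM in SHMT2 HKO mice 1 to 3. The log2 fold change (log2FC below, positive where SHMT2 HKO livers were higher) was -2.04, with an SE of 0.16 and an adjusted p of 0.000639. Unless another test is named, an adjusted p is that of the edgeR quasi-likelihood test, adjusted by the Benjamini-Hochberg method. The adjustment ran across the genes tested in each fit, 16089 in the main fit and 16262 to 16813 without 1 mouse. A gene is called where its adjusted p is under 0.05. The labelled tissue held its hepatocyte markers, with *Alb*, the albumin gene, between 34486 and 65656 CPM in the 6 livers.

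Of the 10 genes, 2 were higher in SHMT2 HKO livers at an adjusted p under 0.05, *Slc25a13* and *Otc*, against 12.5% of all genes tested. *Slc25a13*, which supplies mitochondrial aspartate to the cycle, had the largest difference at 1.84-fold, and *Otc* was 1.67-fold higher. No gene of the 10 was called lower (0 also at an unadjusted p under 0.05), against 16.5% of all genes (29.0% in either direction). Estimated log2FC were above 0 for 9 genes, with a median of 0.35 over the 10, against 0.027 over all genes tested. The CPM of the genotypes did not overlap for 3 genes, *Slc25a13*, *Otc* and *Arg1*, each higher in SHMT2 HKO livers, against 21.9% of all genes. With DESeq2 and with upper-quartile scaling, 9 of the 10 were likewise above 0. Without any scaling beyond library size, 4 were. Scaled to the ERCC spike-in RNAs, which moved the median of all genes by -0.72, *Slc25a13* alone stayed above 0 (log2FC 0.17) and 0 of the 10 were called higher, against 0.665% of all genes (1 of the 10 had an unadjusted p under 0.05).

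**Figure D1:**
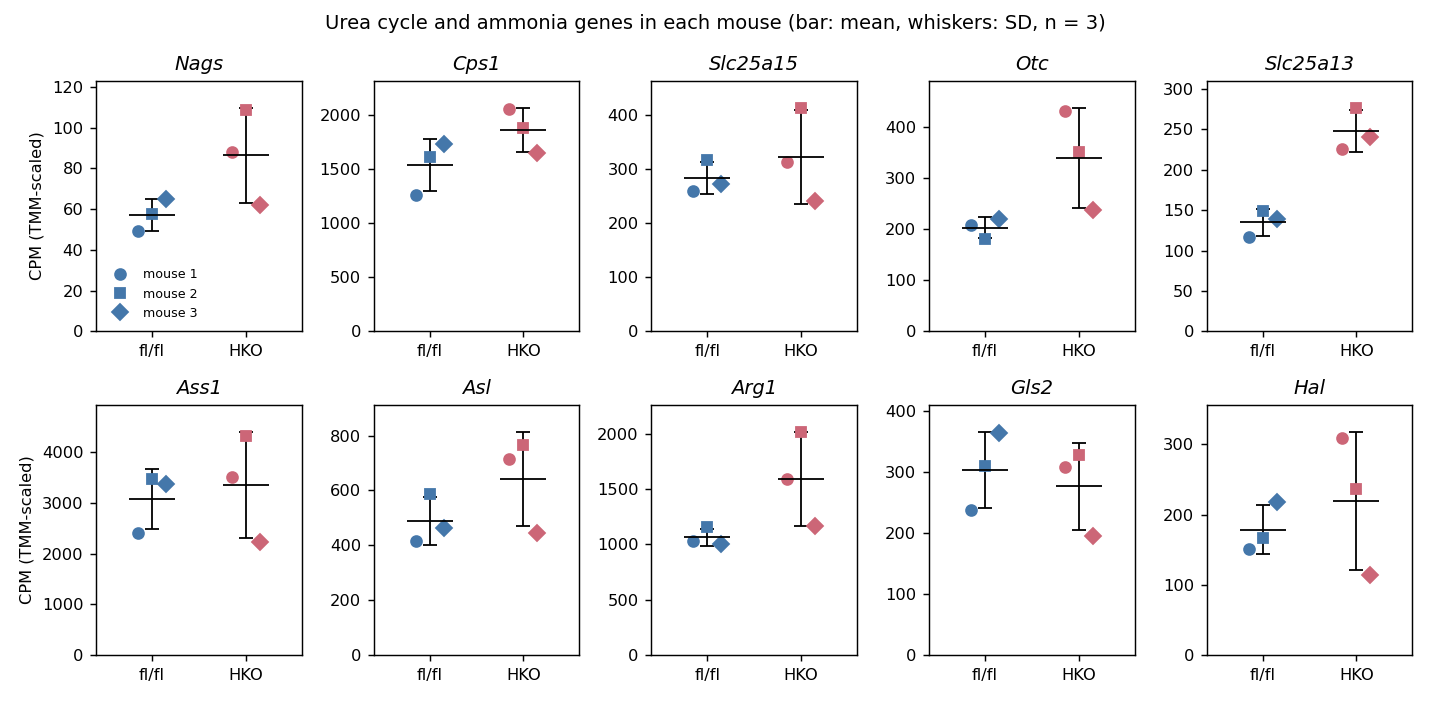
CPM of each of the 10 genes (vertical axis, from 0) in SHMT2 fl/fl (blue) and SHMT2 HKO (red) livers, with 1 symbol per mouse, the mean as a bar and the SD as whiskers. All SHMT2 HKO points lie above all SHMT2 fl/fl points for *Slc25a13*, *Otc* and *Arg1*, and the diamond of SHMT2 HKO mouse 3 is the lowest red point in 9 of 10 panels.

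The 2 called genes differ in the sequence before their start sites, which is shown because they are the genes called in the main fit. The 250 bases upstream of the RefSeq start are given 5′ to 3′ on the gene's strand (GRCm38.p6), *Otc* at chrX:10252055-10252304 on the plus strand and *Slc25a13* at chr6:6217174-6217423 on the minus strand. Capitals mark the matches to 5 of the 6 short motifs that were searched on both strands, and the other motif is not reported here.
Otc: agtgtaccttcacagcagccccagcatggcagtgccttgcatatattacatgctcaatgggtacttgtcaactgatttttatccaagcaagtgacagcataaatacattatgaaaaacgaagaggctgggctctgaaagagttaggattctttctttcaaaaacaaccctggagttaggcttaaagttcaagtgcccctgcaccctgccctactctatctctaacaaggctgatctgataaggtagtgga
Slc25a13: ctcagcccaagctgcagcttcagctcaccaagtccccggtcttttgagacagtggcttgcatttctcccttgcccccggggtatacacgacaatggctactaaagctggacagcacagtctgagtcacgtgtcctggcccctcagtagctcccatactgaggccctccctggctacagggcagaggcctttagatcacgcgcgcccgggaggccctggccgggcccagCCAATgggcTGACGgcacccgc
The 5 motifs were TTNNGCAA (C/EBP), TGACG (the core of a CRE), CAAAGNNCA (HNF4), CCAAT and TATAAA. *Slc25a13* held 1 CCAAT and 1 TGACG, starting 22 and 13 bases before the start site, and *Otc* held no match to any of the 5. Of 32841 promoter windows of 300 bases, 37.4% held CCAAT and 20.8% TGACG, so such matches are common. The 300-base window of *Slc25a13* was 65.0% G and C with 17 CpG, and that of *Otc* 44.3% with 1 CpG, where the median window had 52.7% and 7. Promoter entries matched 6 of the 10 genes, which also included *Ass1* (74.0% G and C), *Nags* (57.7%), *Hal* (47.7%) and *Slc25a15* with 2 windows (60.7% and 79.0%). *Cps1*, *Asl*, *Arg1* and *Gls2* had no entry. A TTNNGCAA match, present in 10.8% of all windows, was found in *Hal* only among the 6, and TGACG in *Nags* and *Slc25a13*. CCAAT was found in *Hal* as well as *Slc25a13*, and TATAAA, present in 13.6% of all windows, in *Hal* only.

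Carbamoyl phosphate formation is catalysed by CPS1, the first enzyme of the cycle, which needs N-acetylglutamate made by NAGS. Gene positions below are in GRCm38. *Cps1* (ENSMUSG00000025991, chromosome 1, 67123026 to 67231259) had 1264, 1609 and 1733 CPM in SHMT2 fl/fl mice 1 to 3 and 2054, 1884 and 1647 CPM in SHMT2 HKO mice 1 to 3. The groups overlapped, because SHMT2 HKO mouse 3 lay below SHMT2 fl/fl mouse 3. Its log2FC was 0.28 (95% interval -0.16 to 0.71, adjusted p = 0.307). *Nags* (ENSMUSG00000048217, chromosome 11, 102145513 to 102149477) had 49.3, 57.6 and 64.9 CPM in SHMT2 fl/fl mice and 88.3, 109 and 62.15 CPM in SHMT2 HKO mice. SHMT2 HKO mice 1 and 2 were above every SHMT2 fl/fl mouse, and SHMT2 HKO mouse 3 was within their range. The log2FC of 0.59 (95% interval 0.12 to 1.07) had an adjusted p of 0.0622. *Nags* shares 443 bp of exon with the antisense gene *Gm11586*, which had 20 to 39 counts per mouse against 1532 to 2486 on *Nags*.

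Citrulline formation in the matrix needs OTC and the ornithine carrier SLC25A15, which exchanges cytosolic ornithine for citrulline. *Otc* (ENSMUSG00000031173, chromosome X, 10252305 to 10321024) had 207, 181.5 and 221 CPM in SHMT2 fl/fl mice 1 to 3 and 432, 351 and 237 CPM in SHMT2 HKO mice 1 to 3. Each SHMT2 HKO mouse was above each SHMT2 fl/fl mouse, mouse 3 by the smallest margin. The log2FC was 0.74 (SE 0.22, adjusted p = 0.0362), with a mean that went from 203 ± 20.0 to 340 ± 97.9 CPM (SD, n = 3 mice). Its adjusted p rose to 0.0649 without SHMT2 HKO mouse 1 and 0.0931 without mouse 2, and to 0.102, 0.128 and 0.0894 without SHMT2 fl/fl mouse 1, 2 or 3. Of 15 alternatives, 6 kept the call. *Slc25a15* (ENSMUSG00000031482, chromosome 8, 22375551 to 22398597) had 260, 317 and 274 CPM in SHMT2 fl/fl mice and 314, 414 and 242 CPM in SHMT2 HKO mice. SHMT2 HKO mouse 3 was the lowest of all 6 and mouse 2 the highest. Its log2FC was 0.19 (95% interval -0.28 to 0.66, adjusted p = 0.531). Its paralog *Slc25a2* had 2 to 9 counts per mouse and was not tested.

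In the cytosol, ASS1 joins citrulline and aspartate, and SLC25A13, known as citrin, exports that aspartate from mitochondria in exchange for glutamate. *Slc25a13* (ENSMUSG00000015112, chromosome 6, 6041218 to 6217173) had 116, 149.5 and 139 CPM in SHMT2 fl/fl mice 1 to 3 and 226, 277 and 240 CPM in SHMT2 HKO mice 1 to 3. The groups were far apart, and it was the one gene of the 10 in which SHMT2 HKO mouse 3 was not the lowest of its group. It rose from 135 ± 16.9 to 248 ± 26.01 CPM (SD, n = 3 mice), a log2FC of 0.88 (SE 0.15, 95% interval 0.54 to 1.22, adjusted p = 0.00465). The call held in 14 of 15 alternatives, and without any single mouse its adjusted p stayed between 0.00335 and 0.0273. The exception was ERCC scaling (log2FC 0.17, SE 0.45, adjusted p = 0.775). The ERCC share of all counts was 1.48%, 1.84% and 1.42% in SHMT2 fl/fl mice 1 to 3. In SHMT2 HKO mice 1 to 3 it was 2.75%, 2.31% and 1.35%. *Slc25a12*, the paralog known as aralar, had 18.1 to 20.1 CPM in SHMT2 fl/fl and 19.1 to 22.1 CPM in SHMT2 HKO livers, with a log2FC of 0.11 (95% interval -0.16 to 0.38, adjusted p = 0.533).

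*Ass1* (ENSMUSG00000076441, chromosome 2, 31470207 to 31520672) had 2398, 3470 and 3374 CPM in SHMT2 fl/fl mice 1 to 3 and 3515, 4318 and 2237 CPM in SHMT2 HKO mice 1 to 3. SHMT2 HKO mouse 3 was the lowest of all 6 livers and mouse 2 the highest, so the groups overlapped. The log2FC was 0.12 (95% interval -0.51 to 0.76, adjusted p = 0.765). *Asl* (ENSMUSG00000025533, chromosome 5, 130011258 to 130029247), whose enzyme splits argininosuccinate into arginine and fumarate, had 415, 587 and 462.5 CPM in SHMT2 fl/fl mice and 716, 765 and 444 CPM in SHMT2 HKO mice. SHMT2 HKO mice 1 and 2 were above every SHMT2 fl/fl mouse, and mouse 3 was within their range. Its log2FC was 0.39 (95% interval -0.15 to 0.94, adjusted p = 0.247).

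*Arg1* (ENSMUSG00000019987, chromosome 10, 24915221 to 24927484) encodes arginase 1, which releases urea. It had 1028, 1151 and 1004 CPM in SHMT2 fl/fl mice 1 to 3 and 1592, 2018 and 1165 CPM in SHMT2 HKO mice 1 to 3. The groups did not overlap, but SHMT2 HKO mouse 3 exceeded SHMT2 fl/fl mouse 2 only slightly. Its log2FC of 0.58 (95% interval 0.08 to 1.09) had an adjusted p of 0.0801. *Arg2*, the mitochondrial arginase, was low, at 0.297 to 0.790 CPM over the 6 mice (log2FC -0.52, adjusted p = 0.399).

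GLS2, the liver glutaminase, and HAL, histidine ammonia-lyase, release ammonia from glutamine and histidine. *Gls2* (ENSMUSG00000044005, chromosome 10, 128194457 to 128210004) had 239, 310 and 364 CPM in SHMT2 fl/fl mice 1 to 3 and 308, 328 and 195 CPM in SHMT2 HKO mice 1 to 3. The groups overlapped widely, and SHMT2 HKO mouse 3 was the lowest of the 6. It was the 1 gene with an estimate below 0, a log2FC of -0.13 (95% interval -0.67 to 0.40, adjusted p = 0.702). *Gls2* lies 672 kb from *Shmt2* and shares 97 bp of exon with *Spryd4*. *Hal* (ENSMUSG00000020017, chromosome 10, 93488768 to 93519304) had 151, 167 and 218 CPM in SHMT2 fl/fl mice and 309, 237 and 114 CPM in SHMT2 HKO mice. These SHMT2 HKO values spanned the whole range of the 6 livers. Its log2FC was 0.30 (95% interval -0.47 to 1.06, adjusted p = 0.54).

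**Figure D2:**
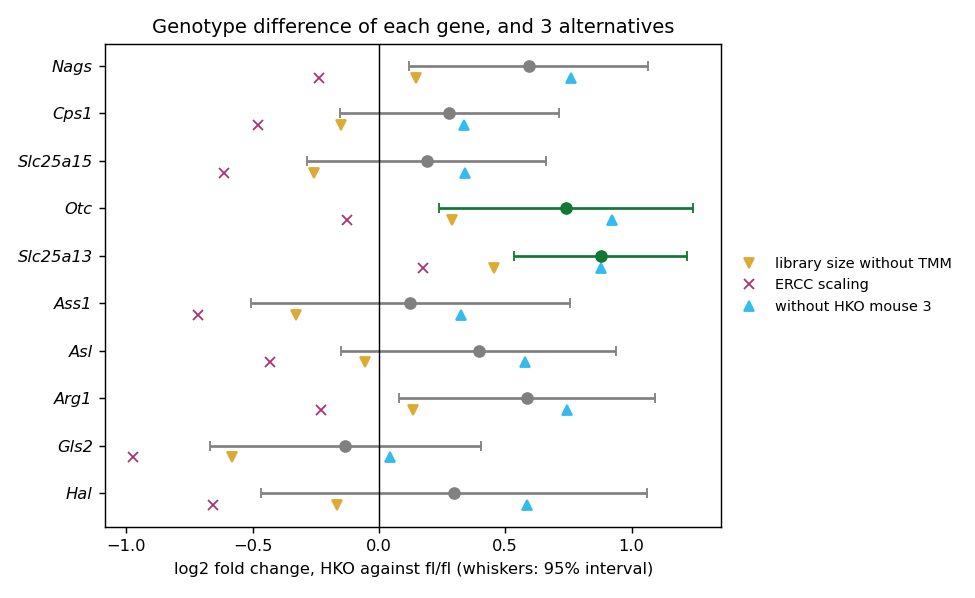
Log2FC of each gene, SHMT2 HKO against SHMT2 fl/fl (horizontal axis), with its 95% interval, green where the adjusted p was under 0.05, beside the estimates without TMM, with ERCC scaling and without SHMT2 HKO mouse 3. ERCC scaling placed 9 of 10 estimates below 0, and leaving out SHMT2 HKO mouse 3 placed all 10 above 0.

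Which mouse was lowest was shared by most of the 10 genes. SHMT2 HKO mouse 3 had the lowest CPM of its group for 9 of the 10 genes, where it was the lowest for 34.7% of all genes tested. This was not particular to the 10 genes. The pericentral markers described below summed to 13294.9, 14475.5 and 9122.2 CPM in SHMT2 HKO mice 1 to 3. The stellate cell markers went the other way, with 320.9, 487.7 and 807 CPM. Among controls, SHMT2 fl/fl mouse 1 was the lowest for 8 of the 10, against 37.6% of all genes. The coefficient of variation over SHMT2 HKO mice ran from 10.5% (*Slc25a13*) to 44.9% (*Hal*), and over SHMT2 fl/fl mice from 7.44% (*Arg1*) to 20.6% (*Gls2*). The 10 genes together held 6127.5, 7999.5 and 7854 CPM in SHMT2 fl/fl mice 1 to 3 and 9554, 10700.3 and 6583 CPM in SHMT2 HKO mice 1 to 3. The sum overlapped between genotypes for the same reason as most single genes, since SHMT2 HKO mouse 3 was below SHMT2 fl/fl mice 2 and 3 (exact permutation test over 10 splits, two-sided, p = 0.3, where 0.1 is the smallest possible). Without SHMT2 HKO mouse 3, 6 of the 10 were called higher, *Otc*, *Asl*, *Slc25a13*, *Arg1*, *Hal* and *Nags*, against 15.0% of all genes then. Without any 1 of the other 5 mice, the 1 gene called was *Slc25a13*, against 5.76%, 5.20% and 4.93% of all genes without SHMT2 fl/fl mouse 1, 2 or 3, and 12.0% and 6.72% without SHMT2 HKO mouse 1 or 2. DESeq2 called 4 higher, adding *Arg1* and *Nags*, against 15.8% of all genes. Without TMM, 1 was called higher, *Slc25a13*, against 3.35% of all genes, and 1 lower, *Gls2*, against 30.6%. Upper-quartile scaling called 1 higher, *Slc25a13*, against 9.08% of all genes, and a block on the mouse number likewise 1, *Slc25a13*, against 8.68%.

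Levels were compared between genes per length, as RPKM, the CPM divided by the kilobases of annotated exon. *Ass1* was the most abundant, at 1276 ± 246 RPKM (SD, n = 3) in SHMT2 fl/fl livers, followed by *Arg1* (476 ± 35.4), *Cps1* (276 ± 43.7) and *Asl* (101 ± 18.4). *Ass1* exceeded *Arg1*, *Arg1* exceeded *Cps1*, and *Cps1* exceeded *Asl* in all 6 livers. *Gls2* (87.5 ± 18.0) could not be separated from *Asl*, since their SHMT2 fl/fl ranges overlapped. *Slc25a15* (50.4 ± 5.34) and *Otc* (47.9 ± 4.71) were also level in SHMT2 fl/fl livers, while *Otc* exceeded *Slc25a15* in all 3 SHMT2 HKO livers. *Slc25a13* (35.5 ± 4.46) and *Hal* (32.2 ± 6.35) overlapped, and *Nags*, the gene of the regulatory enzyme, was the lowest at 20.2 ± 2.75 RPKM. In SHMT2 HKO livers *Slc25a13* reached 65.3 ± 6.85 RPKM and *Hal* 39.6 ± 17.8.

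A ratio of 2 genes in the same library does not depend on how libraries are scaled. Of 13 such ratios, chosen after the values were seen, 6 did not overlap between genotypes. Set against *Cps1*, *Slc25a13* was higher in SHMT2 HKO livers by 0.60 (log2) and *Gls2* had a difference of -0.43, while the ratios of the other 7 genes to *Cps1* overlapped. *Slc25a13* was higher against *Slc25a12* by 0.77 and against *Ass1* by 0.79, and *Otc* was higher against *Slc25a15* by 0.54. The ratio of *Gls2* to *Glul*, the genes that release and bind ammonia in the glutamine cycle, differed most. Its log2 value was -0.74, -1.17 and -0.23 in SHMT2 fl/fl mice 1 to 3 and -2.73, -3.0 and -2.91 in SHMT2 HKO mice 1 to 3. All SHMT2 HKO values were far below the SHMT2 fl/fl values, with a mean difference of -2.16. Of the 2 genes, *Glul*, which is not among the 10, was called higher (log2FC 2.01, adjusted p = 0.00284). *Gls2* itself was not called (log2FC -0.13, adjusted p = 0.702). Any ratio without overlap has the smallest p that 3 mice against 3 allow (exact permutation test, two-sided, p = 0.1, adjusted over 13 ratios 0.217). For these 6 that p therefore adds nothing to the separation itself. The share of other gene pairs without overlap was not computed.

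**Figure D3:**
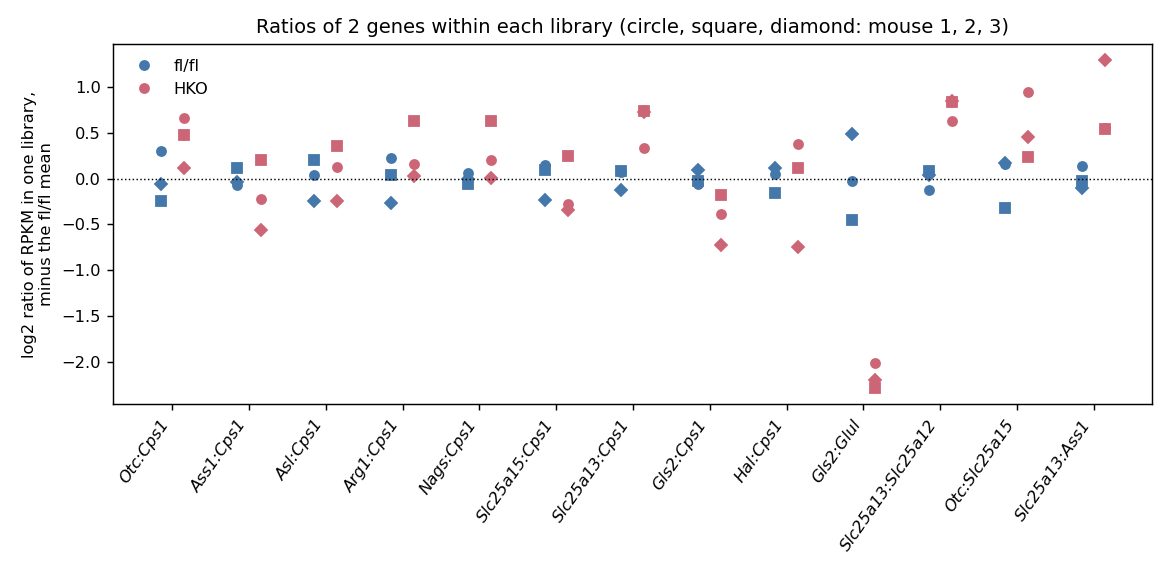
Log2 ratio of the RPKM of 2 genes in each library, minus the SHMT2 fl/fl mean of that ratio (vertical axis), with 1 symbol per mouse. *Slc25a13* is above the SHMT2 fl/fl points against *Cps1*, *Slc25a12* and *Ass1*, and *Gls2* against *Glul* has a mean difference of -2.16. Of that last pair, *Glul* was called higher and *Gls2* was not called.

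Among 17 genes of glutamine, glutamate and ammonia handling, 16 were tested, of which 4 were called higher and 2 lower, with a median log2FC of 0.43. Of all genes, 12.5% were called higher and 16.5% lower, which is the background for this list and those below. Without SHMT2 HKO mouse 3, 11 of the 16 were called, and calls over all genes went from 4663 to 5597. *Glul*, glutamine synthetase, had 381, 669 and 409 CPM in SHMT2 fl/fl mice 1 to 3 and 1962, 2502 and 1403 CPM in SHMT2 HKO mice 1 to 3. The groups were far apart, with a log2FC of 2.01 (SE 0.30, adjusted p = 0.00284). *Car5a*, a mitochondrial carbonic anhydrase that supplies bicarbonate to CPS1, rose from 30.1 ± 5.69 to 104 ± 40.4 CPM (SD, n = 3; log2FC 1.79, adjusted p = 0.00477). *Slc1a2*, a glutamate transporter of pericentral hepatocytes, rose (log2FC 1.98, adjusted p = 0.00242), as did *Got2*, the mitochondrial aspartate aminotransferase (log2FC 0.68, adjusted p = 0.019). The genes that fell were *Asns*, asparagine synthetase, with a log2FC of -1.47 (adjusted p = 0.0362), and *Aldh18a1*, of proline and ornithine synthesis, with -1.33 (adjusted p = 0.00875). Both were low, with 13 to 73 counts on *Asns* and 58 to 126 on *Aldh18a1* per SHMT2 HKO mouse. The glutamine and amino acid transporters *Slc38a3* and *Slc38a4*, the most abundant of those not called, had 0.75 (adjusted p = 0.0856) and 0.39 (adjusted p = 0.129).

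Of 13 genes of arginine, ornithine and polyamine metabolism, 12 were tested, with 4 called higher and 1 lower and a median log2FC of 0.29. *Oat*, ornithine aminotransferase, had 132, 209 and 183 CPM in SHMT2 fl/fl mice and 722, 1366 and 393 CPM in SHMT2 HKO mice. The groups were far apart (log2FC 2.24, SE 0.43, adjusted p = 0.00772). *Gamt*, of creatine synthesis (log2FC 0.86, adjusted p = 0.0282), *Agmat* (log2FC 0.85, adjusted p = 0.00996) and *Azin1*, the antizyme inhibitor (log2FC 0.83, adjusted p = 0.00486), also rose. *Slc7a1*, a cationic amino acid transporter, fell (log2FC -1.42, adjusted p = 0.00477). The more abundant *Slc7a2*, the liver's main transporter of that family, had a log2FC of -0.32 (adjusted p = 0.148) and *Odc1*, ornithine decarboxylase, 0.34 (adjusted p = 0.156).

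Of 11 genes for the breakdown of histidine and other amino acids that yield ammonia, 5 were called higher and 0 lower (1 lower at an unadjusted p under 0.05), with a median log2FC of 0.52. *Uroc1* and *Ftcd*, which act after HAL in histidine breakdown, rose with a log2FC of 0.76 (adjusted p = 0.0263) and 0.69 (adjusted p = 0.0252), whereas *Amdhd1*, of the same pathway, had 0.18 (adjusted p = 0.539). *Prodh* and *Prodh2*, of proline and hydroxyproline breakdown, rose with a log2FC of 1.37 (adjusted p = 0.00621) and 0.88 (adjusted p = 0.0275), and *Aspg*, an asparaginase, with 0.84 (adjusted p = 0.03). *Sds*, serine dehydratase, had -0.57 (adjusted p = 0.231). This count fell to 1 without any single SHMT2 fl/fl mouse and to 2 without SHMT2 HKO mouse 2, where the share of all genes called higher also fell, to 4.93% to 5.76% and to 6.72%.

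Among 11 regulators of urea cycle genes, 5 were called higher and 0 lower (0 lower at an unadjusted p under 0.05), with a median log2FC of 0.47. *Gcgr*, the glucagon receptor, rose from 230 ± 17.2 to 369 ± 48.0 CPM (SD, n = 3; log2FC 0.68, adjusted p = 0.0125). *Cebpa*, a hepatocyte transcription factor, rose with a log2FC of 0.72 (adjusted p = 0.00901), *Sirt3*, a mitochondrial deacetylase, with 0.72 (adjusted p = 0.0132) and *Creb3l3* with 0.56 (adjusted p = 0.0217). *Hnf4a* had 0.41 (adjusted p = 0.101) and *Cebpb* 0.33 (adjusted p = 0.574). Without TMM, and with ERCC scaling, 0 of the 11 were called (0 at an unadjusted p under 0.05 in both). Of all genes, 3.35% were called higher and 30.6% lower without TMM. With ERCC scaling 0.665% were called higher, and 2759 of 16089 genes lower. The count fell to 1 without SHMT2 fl/fl mouse 2 and to 3 without mouse 1 or 3, beside the same fall over all genes.

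**Figure D4:**
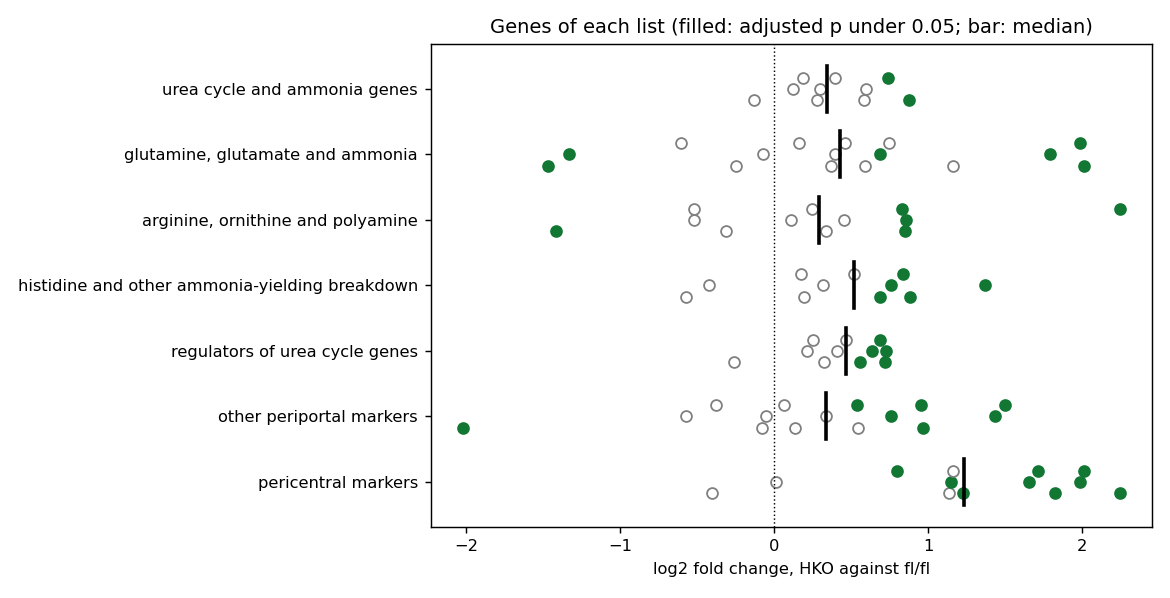
Log2 fold change, SHMT2 HKO against SHMT2 fl/fl (horizontal axis), of tested genes, filled where the adjusted p was under 0.05, with each list's median as a bar. Shown are the urea cycle, glutamine, arginine, breakdown, regulator, periportal and pericentral lists. The hepatocyte and other cell type markers are not in the figure. The urea cycle and ammonia genes lie between -0.13 and 0.88, and the pericentral markers have a median of 1.23.

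Other periportal markers behaved unevenly. Of 15, 6 were called higher and 1 lower, with a median log2FC of 0.34. *Apoa4*, *Pigr* and *Cyp2f2* rose with a log2FC of 1.501, 1.43 and 0.96 (adjusted p = 0.0274, 0.00675 and 0.0181). *Cdh1*, E-cadherin, fell (log2FC -2.02, adjusted p = 0.0017), and it is also made by cholangiocytes. The gluconeogenic *Pck1* and *Fbp1* had -0.08 (adjusted p = 0.834) and 0.14 (adjusted p = 0.636). The count of calls was 3 without SHMT2 fl/fl mouse 1 or 2 and 4 without mouse 3, again beside fewer calls over all genes. Of 13 pericentral markers, 9 were called higher and 0 lower (0 lower at an unadjusted p under 0.05), with a median of 1.23. They include *Glul*, *Oat* and *Slc1a2*, above, and *Cyp2e1*, which rose from 1855 ± 486.5 to 6546 ± 1171 CPM (SD, n = 3; adjusted p = 0.0026). *Cyp2a5* had -0.40 (adjusted p = 0.495) and *Axin2* 0.014 (adjusted p = 0.965).

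Markers of other liver cell types also differed between genotypes. All 6 cholangiocyte markers fell, from a summed 974 to 1216 CPM in SHMT2 fl/fl to 129 to 247 CPM in SHMT2 HKO livers, with a log2FC of -4.02 for *Cldn4*, -3.115 for *Epcam* and -2.97 for *Krt19*. None of them was at 0. Hepatocyte markers summed to 58016 to 71568 and 68701 to 102232 CPM, with SHMT2 HKO mouse 3 the lowest of its group there too, and 2 of 7 tested were called higher (*Ttr*, adjusted p = 0.0498, and *Apob*, adjusted p = 0.0269), while *Alb* had 0.56 (adjusted p = 0.132) and *Apoa1* 0.69 (adjusted p = 0.0646). The 1 hepatocyte marker with an estimate below 0 was *Ahsg* (log2FC -0.34, adjusted p = 0.318). Of the other lists, 4 of 7 stellate cell, 3 of 6 macrophage and 2 of 6 lymphocyte and neutrophil markers fell, and 1, 2 and 0 rose (0 lymphocyte or neutrophil markers higher at an unadjusted p under 0.05). The macrophage markers that rose had the larger changes, *Timd4* with a log2FC of 3.57 (adjusted p = 0.00149) and *Clec4f* with 2.83 (adjusted p = 0.00391). Those that fell were *Ptprc* (-1.19, adjusted p = 0.0133), *Cd68* (-0.85, adjusted p = 0.00938) and *Csf1r* (-0.69, adjusted p = 0.00931). *Timd4* was low, with 6 to 15 counts per SHMT2 fl/fl mouse. Of 6 endothelial markers 2 rose and 0 fell (0 lower at an unadjusted p under 0.05). Median log2FC were 0.63 for hepatocyte, -2.97 for cholangiocyte, -0.60 for stellate cell, 0.48 for endothelial, -0.70 for macrophage and -0.85 for lymphocyte and neutrophil markers. The hepatocyte count was 0 without any single SHMT2 fl/fl mouse or SHMT2 HKO mouse 2 (1 to 3 at an unadjusted p under 0.05), 1 without SHMT2 HKO mouse 1 and 4 without mouse 3. Stellate cell calls went from 5 to 3 without SHMT2 fl/fl mouse 2 or 3 or SHMT2 HKO mouse 2, and endothelial calls from 2 to 4 without SHMT2 HKO mouse 1. Fewer cells of a type and less RNA per cell cannot be told apart in whole liver, and the part of these markers' cells in the values of the 10 genes was not tested.

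The genes with a mean of at least 5 log2 CPM whose centred log2 CPM over the 6 livers came closest to that of *Cps1* were *Mrpl28*, *Mrpl9* and *Igfbp4*, with a root mean square difference of 0.0553, 0.0590 and 0.0608, among 4496 genes. Closest to the mean profile of the 10 genes were *Txn2* (0.0352), *Oaz1* (0.0479) and *Atp5d* (0.0494), each with SHMT2 HKO livers above SHMT2 fl/fl livers on average and not called. Within the 10, *Asl* (0.113) and *Nags* (0.123) lay closest to that mean and *Slc25a13* (0.328) farthest from it.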

How the data were processed

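RNA of 6 liver samples, 3 per genotype, was sequenced as paired reads, and no comparison other than genotype was possible. The authors trimmed the reads with Trimmomatic 0.36, mapped them to the mouse genome (GRCm38) plus ERCC sequences using STAR 2.5.2b and counted unique hits per Ensembl gene. The submitters' processing notes name featureCounts of Subread 1.5.2. The deposited values are these raw counts, without normalization. The use of strand is not given in the sources used here. Columns were assigned to mice by their titles, which pair genotypes by number only. Since the labels do not state that each sample is a separate animal, p-values measure only the spread between these 6 samples, which may be technical.

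Library sizes and tests excluded the 92 ERCC entries. Gene names, positions and exon lengths came from GENCODE M21 (GRCm38), in which 259 of 49671 identifiers had no entry (0.0116% of counts). Genes were filtered with filterByExpr, scaled by TMM and tested with edgeR 4.0.16 in R 4.3.3 (quasi-likelihood, robust), two-sided. The standard error is the log2FC divided by the root of F. The floor of 3 counts equals 0.0734 to 0.152 CPM and covers counting error only. Every pair of same-genotype samples differed by more than sampling noise (chi-square per gene 26.9 to 151). Of 8 hepatocyte symbols, 1 matched no gene name.

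Alternatives were DESeq2 1.42.0, limma-voom (limma 3.58.1), no TMM, upper-quartile and ERCC scaling, other count filters (none, or at least 10 counts in every sample), no robust estimation, a replicate block, and leaving out each mouse. The code was tested on simulated counts. The genes, lists and tests were chosen with earlier results of these data known. Named are the 10 genes, *Shmt2*, paralogs, *Glul*, and of each list up to 4 called genes with the largest change and up to 2 abundant genes not called. *Got2*, *Aldh18a1*, *Azin1*, *Ftcd*, *Creb3l3*, *Csf1r* and *Ahsg* were added after their values were seen, to complete small counts or to show the other direction. Results for some listed genes are not reported here.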

Additional observations from a re-analysis of the deposited data

How the results depend on the processing

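The call of *Shmt2* held in all 15 alternatives, with a log2FC of -2.16 to -1.92 when 1 mouse was left out. Leaving out TMM turned the direction of 5 of the 10 genes, and ERCC scaling that of 8. Without TMM, which moved the median of all genes by -0.42 and left 9.87% of calls higher (43.1% with TMM), the log2FC of *Cps1* (-0.15), *Ass1* (-0.33), *Asl* (-0.057), *Slc25a15* (-0.26) and *Hal* (-0.17) turned negative, *Otc* lost its call (adjusted p = 0.212), and the 2 genes called were *Slc25a13*, higher, and *Gls2*, lower (-0.58, adjusted p = 0.0357). With ERCC scaling, which left 3.73% of calls higher, *Cps1* (-0.48), *Otc* (-0.13), *Ass1* (-0.72), *Asl* (-0.43), *Arg1* (-0.23), *Nags* (-0.24), *Slc25a15* (-0.61) and *Hal* (-0.66) did. The log2 ratio of the summed CPM of the 10 genes was 0.29, against -0.16 without TMM and -0.53 with ERCC scaling, and 0.14 to 0.47 when 1 mouse was left out. Upper-quartile scaling left 32.5% of calls higher. Set against the median of all genes in the same fit, the log2FC moved less. A change of scaling shifts all genes nearly alike, so the subtraction removes most of it by construction and is no test of the scaling. In the main fit, without TMM and with ERCC scaling, it was 0.251, 0.244 and 0.214 for *Cps1*. For *Otc* it was 0.715, 0.685 and 0.566, and for *Slc25a13* 0.85, 0.85 and 0.865. That of *Ass1* was 0.0964, 0.0679 and -0.0238. Why the scalings differed was not tested.

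Genes called, of the 10, were 4 with DESeq2, 1 with upper-quartile scaling, 0 with ERCC scaling (edgeR, 1 at an unadjusted p under 0.05), 1 with the replicate block and 1 to 6 when 1 mouse was left out. Of all genes, 4663 were called, 5414 with DESeq2, 5462 without TMM, 2866 with ERCC scaling and 2426 to 5597 when 1 mouse was left out. Upper-quartile scaling called 4500 genes, the filter of 10 counts 4003, no filter 4263 and no robust estimation 4650. Counts that moved by over 1.5 times in the lists were as follows. DESeq2 called 10 glutamine genes, 5 hepatocyte and 4 endothelial markers. Without TMM, 3 histidine and breakdown genes, 0 regulators (0 at an unadjusted p under 0.05) and 1 hepatocyte marker were called by edgeR. With ERCC scaling, edgeR called 3 glutamine genes, 2 arginine genes, 1 breakdown gene, 0 regulators (0 unadjusted), 4 periportal, 4 pericentral, 1 hepatocyte, 3 stellate and 0 endothelial markers (1 unadjusted). Upper-quartile scaling, the filter of 10 counts and no robust estimation each left 1 hepatocyte marker, the filter of 10 counts 1 lymphocyte or neutrophil marker, and no filter 3 stellate markers. When 1 mouse was left out, edgeR called 4 to 11 glutamine genes, 4 to 5 arginine genes, 1 to 6 breakdown genes, 1 to 6 regulators, 3 to 6 periportal, 7 to 11 pericentral, 0 to 4 hepatocyte (1 to 3 unadjusted where 0), 3 to 6 stellate, 2 to 4 endothelial, 4 to 6 macrophage and 2 to 3 lymphocyte or neutrophil markers, and all 6 cholangiocyte markers each time.

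Leaving out 1 mouse turned the sign of *Ass1* without SHMT2 fl/fl mouse 1 (-0.028) or SHMT2 HKO mouse 2 (-0.097, range over the 6 fits -0.097 to 0.33), of *Slc25a15* without SHMT2 HKO mouse 2 (-0.027 to 0.34), of *Hal* without SHMT2 HKO mouse 1 (-0.027 to 0.59), and of *Gls2* without SHMT2 fl/fl mouse 3 (0.014) or SHMT2 HKO mouse 3 (-0.28 to 0.043). Over 6 such fits the log2FC of *Cps1* was 0.16 to 0.37. Same-numbered mice did not deviate together (correlations -0.0459, 0.0125 and -0.0766), so the replicate block tests a shared number only. Under that block *Otc* had an adjusted p of 0.0723 and *Slc25a13* 0.0113, and 3584 genes were called, with 1 breakdown gene, 4 periportal and 0 hepatocyte markers (1 unadjusted). Lengths from the longest transcript moved the RPKM of 7 of the 10 genes by over 1 SD, which changed the order of 1 neighbouring pair, *Otc* (67.8) and *Slc25a15* (64.0).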
